A study of Mus musculus with 12 samples.

Results

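The proteasome genes described here were the 45 of the 19937 genes on the array whose symbol is Psma, Psmb, Psmc, Psmd or Psme followed by a number. The rule on the name uses no measured value, but the members were chosen with earlier results of these data known. Of the 45 genes, 43 encode parts of a proteasome or factors that bind it, and 2 match by name only, namely Psmc3ip, a partner protein of meiotic recombination, and Psme3ip1, a partner protein of Psme3. By role, 14 genes encode the constitutive core particle, 17 the regulatory cap, 3 the catalytic subunits of the immunoproteasome, 4 activators that dock on the core in place of the cap, 3 chaperones of cap assembly and 2 subunits of proteasomes found in particular tissues. For each gene 1 probe set was used, the one with the highest mean over the 12 arrays. There were 5 members with more than 1 probe set (Psma3, Psma5, Psmb3, Psmc1 and Psmd2), and all probe sets of such a gene had the same sign in both labelled activations. For Psma3 the log2 difference between the labelled T arrays was -0.41 with the probe set used. With its other probe sets it was -0.34 and -0.19, and the arrays overlapped. The probe set used for Psma5 gave 1.18 between the labelled B and -1.41 between the labelled T arrays. Its other probe set gave smaller differences, 1.09 and -1.17.

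The proteasome degrades proteins that carry ubiquitin. Its core is a barrel of alpha rings, which form the gate, and beta rings, which hold the proteolytic sites, and the cap recognises, unfolds and feeds in the substrate. In lymphocytes and after interferon, Psmb8, Psmb9 and Psmb10 take the places of the constitutive catalytic subunits Psmb5, Psmb6 and Psmb7 in newly made cores, which changes the peptides available to MHC class I. Core and cap subunits are built in fixed proportions, and their genes are known to be regulated together.

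Total RNA of lymphocytes from the spleen of C57Bl/6 x FVB mice was hybridised to 12 Affymetrix arrays, 3 for each of 4 labelled groups. The labels describe the resting B cells (day 0) as CD43 negative and the resting T cells (day 0) as B220 negative, both taken straight from the spleen. The activated B cells (day 4) had been cultured with aCD40 and IL4, and the activated T cells (day 4) with aCD3, aCD28 and IL2, so that time, culture and stimulus changed together. The comparisons ask how the 4 groups differ in the RNA of the proteasome. All values are log2 values after RMA, and a level of 1 probe set is compared only with the same probe set on other arrays. Whether a group's 3 arrays stand for separate animals is not stated, and p-values therefore measure only the spread among these arrays, which may be technical.

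Lineage genes contradicted the label of every group. The mean of 9 T cell markers was 9.56 to 10.01 log2 in the arrays labelled B and 5.55 to 6.30 in those labelled T. The mean of 9 B cell markers was 4.91 to 8.39 in the arrays labelled B and 9.24 to 11.28 in those labelled T. The mean of 9 markers of dividing cells was 10.35 to 10.38 in the activated-B-labelled arrays and 9.80 to 9.90 in the resting-T-labelled ones, against 6.70 to 7.15 in the resting-B-labelled ones and 6.38 to 6.94 in the activated-T-labelled ones. Every direction below is therefore one between labelled groups, and since no group was free of this doubt, no result could be computed without the doubted arrays.

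The promoters of 38 of the 45 genes were in the RefSeq table used here (build GRCm38.p6), and the 250 bases before the annotated start were read. The catalytic subunits Psmb5, Psmb8, Psmb9 and Psmb10 are shown because the results turn on how their RNA differed, and the cap subunits Psmc1 and Psmd12 because they carry the ETS motif whose frequency is compared in the next paragraph. Sequences run 5′ to 3′ on the strand of the gene and end at the base before the start, and capitals mark the motifs named in this paragraph. The motifs were searched on both strands. In Psmb5 the capitals are TGACNNNGC, the core of an antioxidant response element as bound by Nfe2l1, which here overlaps a TGACGT.
Psmb5 (chr14:54617996-54618245, minus strand): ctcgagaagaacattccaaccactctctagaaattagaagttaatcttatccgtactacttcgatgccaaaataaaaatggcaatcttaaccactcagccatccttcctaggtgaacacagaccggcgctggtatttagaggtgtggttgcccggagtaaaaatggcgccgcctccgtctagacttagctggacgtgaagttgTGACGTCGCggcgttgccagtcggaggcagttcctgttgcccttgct
In Psmb8 they are TTCNNNGAA, a gamma-activated site.
Psmb8 (chr17:34197945-34198194, plus strand): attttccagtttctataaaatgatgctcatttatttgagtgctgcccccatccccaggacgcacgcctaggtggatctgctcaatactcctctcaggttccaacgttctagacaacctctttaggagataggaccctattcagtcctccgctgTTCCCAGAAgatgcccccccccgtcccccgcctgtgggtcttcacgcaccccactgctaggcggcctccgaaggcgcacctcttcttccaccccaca
In Psmb9 they are a CCAAT box on the opposite strand.
Psmb9 (chr17:34187331-34187580, minus strand): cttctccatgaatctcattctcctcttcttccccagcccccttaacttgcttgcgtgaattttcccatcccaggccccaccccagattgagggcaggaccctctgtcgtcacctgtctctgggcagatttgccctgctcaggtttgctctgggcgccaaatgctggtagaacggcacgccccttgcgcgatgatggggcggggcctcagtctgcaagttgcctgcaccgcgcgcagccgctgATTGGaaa
In Psmb10 they are CACGTG, an E box.
Psmb10 (chr8:105938393-105938642, minus strand): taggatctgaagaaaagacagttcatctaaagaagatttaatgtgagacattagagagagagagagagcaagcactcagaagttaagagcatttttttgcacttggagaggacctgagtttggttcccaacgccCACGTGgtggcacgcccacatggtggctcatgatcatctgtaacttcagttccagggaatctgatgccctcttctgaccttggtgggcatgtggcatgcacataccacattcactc
In Psmc1 they are a CCAAT box on the strand shown and CCGGAAG, a site of ETS factors, on the opposite strand.
Psmc1 (chr12:100109952-100110201, plus strand): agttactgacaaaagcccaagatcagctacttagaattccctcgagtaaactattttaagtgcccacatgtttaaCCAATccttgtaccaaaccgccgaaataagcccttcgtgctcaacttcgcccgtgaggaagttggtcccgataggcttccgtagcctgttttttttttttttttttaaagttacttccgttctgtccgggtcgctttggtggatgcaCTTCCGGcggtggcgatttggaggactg
In Psmd12 they are TGACNNNGC and CCGGAAG, both on the opposite strand.
Psmd12 (chr11:107479278-107479527, plus strand): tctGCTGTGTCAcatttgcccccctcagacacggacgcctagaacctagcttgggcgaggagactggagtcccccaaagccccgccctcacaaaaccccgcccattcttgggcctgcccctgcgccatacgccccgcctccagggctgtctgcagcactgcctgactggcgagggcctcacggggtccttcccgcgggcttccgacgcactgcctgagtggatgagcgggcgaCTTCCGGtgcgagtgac

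Of the 27 windows of core and cap genes, which come from 25 genes, 10 (37.0%) held CCGGAAG, against 6.91% of all 32851 windows. Both windows of Psmc2 are among these, so that windows are not separate genes. The shorter CCGGAA was in 13 (48.1%) of the core and cap windows and in 3952 of all windows, and CGGAAGT, which overlaps it, in 33.3% and 4.92%. The antioxidant core was in 14.8% of the core and cap windows and 10.2% of all, the CCAAT box in 37.0% and 33.8%, and TGACGT in 14.8% and 6.47%. The core of the interferon-stimulated response element was in 7.41% and 2.98%, a narrower form of it in 3.7% and 0.941%, the E2F site TTTCCCGC in 3.7% and 0.895%, and the E box in 3.7% and 6.02%. TTCNNNGAA was in none of the core and cap windows and in 7.02% of all windows, and among the 42 windows of all members Psmb8 alone held it. These matches describe the letters of the windows, and binding was not measured.

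In the activated-B-labelled arrays, nearly the whole proteasome stood higher than in the resting-B-labelled ones. All 14 core genes and 16 of the 17 cap genes rose, with median log2 differences of 0.85 and 0.84, beside -0.02 over all genes. By the same test 36.5% of all genes were called, 19.7% higher and 16.7% lower. In all 39 of the 45 members were called higher and 0 lower, and in 42 of them the 3 arrays of one group lay above all 3 of the other, as was so for 23.9% of all genes. In such bulk RNA, more RNA per cell and more cells of a kind cannot be told apart, and the markers of dividing cells moved in the same direction, with 9 of 9 called higher and a median of 4.02. Whether cell division had a part in the proteasome differences was not tested.

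Among the core genes, Psmb2, a structural subunit of the beta ring, changed most. Psmb2 was at 8.59, 8.80 and 8.84 in the resting-B-labelled arrays and at 10.12, 10.04 and 10.18 in the activated-B-labelled ones. These groups were far apart, with a log2 difference of 1.37 (SE 0.10, adjusted p = 1.54e-08 from limma), or 2.58-fold. Psma5, of the alpha ring, was at 8.08, 8.20 and 8.23 against 9.40, 9.20 and 9.44, a difference of 1.18 (SE 0.12, adjusted p = 3.66e-07). The 7 genes of the alpha ring had a median difference of 0.89, the 4 structural genes of the beta ring 0.81 and the 3 constitutive catalytic genes 0.87. The smallest core differences were those of Psmb1, at 0.50, and Psma3, at 0.59, and both passed the test.

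Among the cap genes, the lid subunit Psmd7 changed most. It was at 7.76, 8.11 and 8.18 in the resting-B-labelled arrays and at 9.37, 9.11 and 9.30 in the activated-B-labelled ones, a log2 difference of 1.24 (SE 0.13, adjusted p = 9.19e-07 from limma). Psmd1, a large scaffold subunit of the base, was at 8.85, 8.95 and 8.94 against 10.20, 10.02 and 10.04, a difference of 1.18 (SE 0.10, adjusted p = 6.85e-08). The 8 genes of the lid had a median difference of 0.91 and the 6 ATPases of the base, Psmc1 to Psmc6, one of 0.72. Psmd4, a receptor for ubiquitin chains, was the cap gene that did not pass, with 7.80, 8.02 and 8.09 against 8.22, 8.27 and 8.18. Its arrays did not overlap, but the log2 difference was 0.25 (SE 0.10, adjusted p = 0.0707). With each array centred on the median of all its probe sets it passed, and all 17 cap genes were then called.

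Between the arrays labelled T the direction was the opposite. All 14 core genes and all 17 cap genes were lower in the activated-T-labelled arrays than in the resting-T-labelled ones, with median log2 differences of -0.99 and -0.86, beside 0.02 over all genes. By this test 33.7% of all genes were called, 17.8% lower and 15.9% higher. In all 39 members were called lower and 0 higher, and in 39 the groups did not overlap in that direction, as in 21.1% of all genes. The dividing cell markers again moved with the proteasome, with 9 of 9 called lower and a median of -3.87, and their part in it was not tested.

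Psmd8, a subunit of the lid, had the largest difference of the core and cap genes between the arrays labelled T. It was at 10.16, 10.22 and 10.21 in the resting-T-labelled ones and at 8.92, 8.70 and 8.70 in the activated-T-labelled ones, a log2 difference of -1.42 (SE 0.09, adjusted p = 1.13e-09 from limma). Psma5 was at 9.19, 9.43 and 9.66 against 8.12, 8.03 and 7.92, a difference of -1.41 (SE 0.12, adjusted p = 5.05e-08). Psma4, also of the alpha ring, differed by -1.25 (SE 0.12, adjusted p = 2.44e-07). The smallest differences were those of Psmd4, at -0.32, Psma3, at -0.41, Psmd13, at -0.52, and Psmb1, at -0.56, all of which passed the test.

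**Figure D1:**
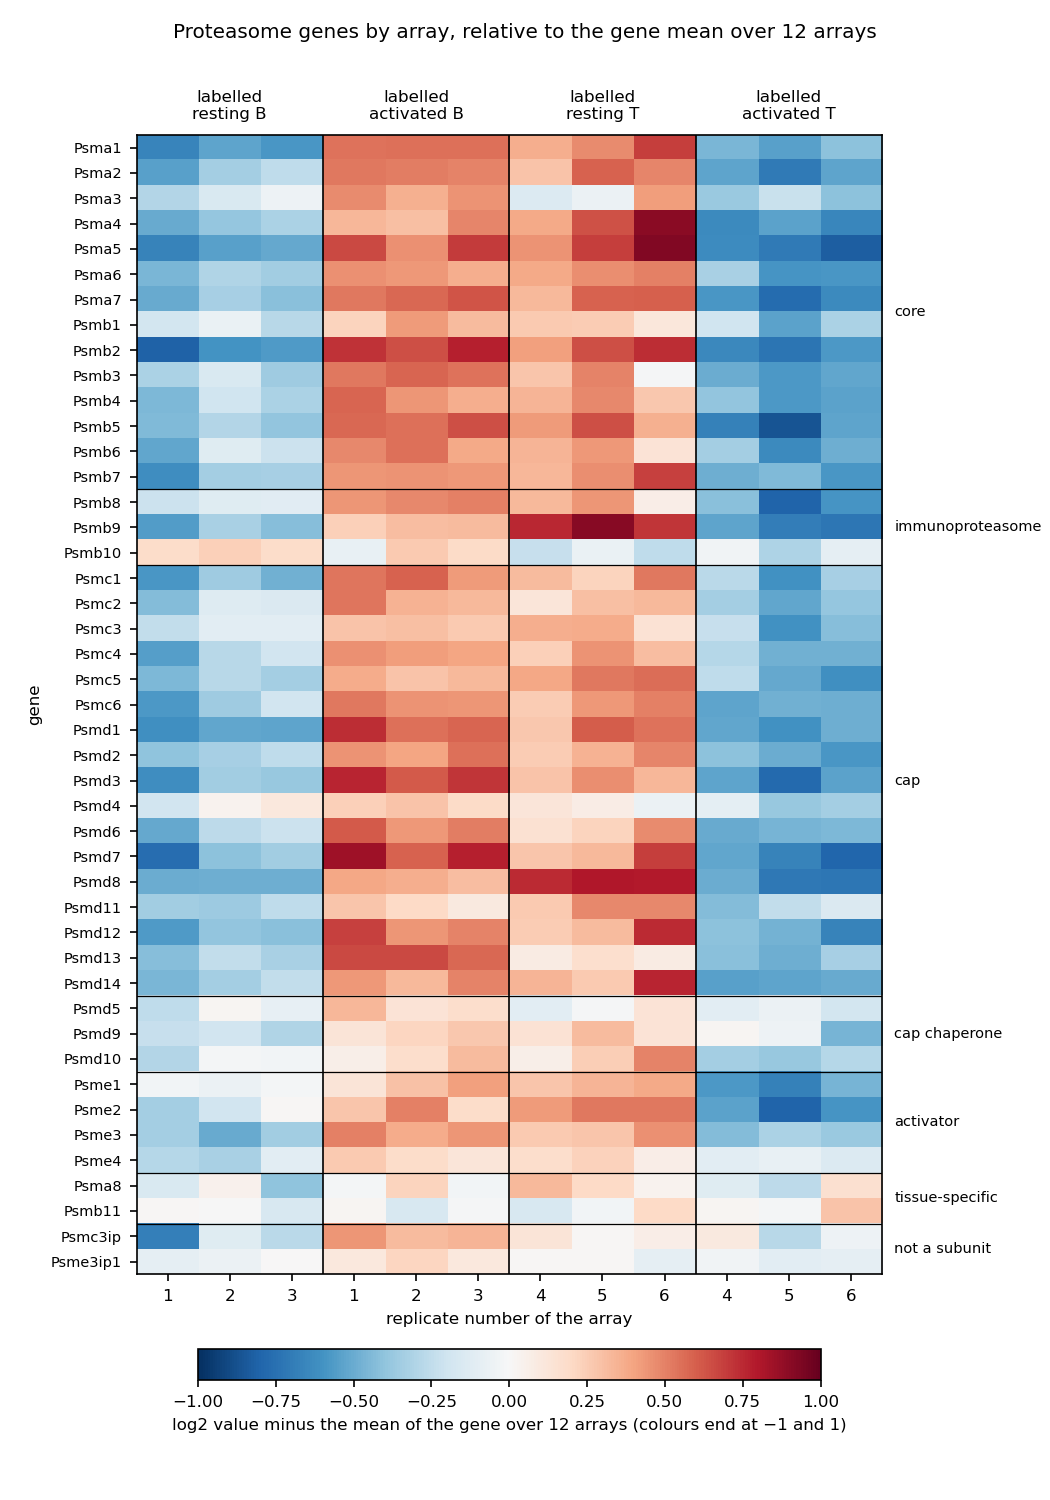
Each row is 1 gene and each column 1 array, grouped by label, and the colour is the log2 value minus the mean of that gene over the 12 arrays. Most core and cap rows are red in the activated-B-labelled and resting-T-labelled arrays and blue in the other 6, while Psma3, Psmd4 and Psmb10 depart from this.

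On single arrays, 37 of the 45 members had all 6 activated-B-labelled and resting-T-labelled arrays above all 6 resting-B-labelled and activated-T-labelled arrays, among them 13 of the 14 core genes and 16 of the 17 cap genes. The same held for 12% of all genes, and the reverse for 8.05% of all genes and 0 members. The gap between the lowest of the upper 6 arrays and the highest of the lower 6 was 0.97 log2 for both Psmb2 and Psma5 and 0.80 for Psmd8. The exceptions of the core and the cap were Psma3 (gap -0.09 log2) and Psmd4 (gap -0.16 log2). The other exceptions were Psmb10, the cap chaperone Psmd5, the tissue-specific Psma8 and Psmb11, and both genes that match by name only. The SD within a group over the 31 core and cap genes had a median of 0.10 log2 and a highest value of 0.30.

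The difference between the labelled B difference and the labelled T difference was tested as an interaction, and these differences share no arrays. The dividing cell markers had opposite signs in them too, with medians of 4.02 and -3.87, and their part was not tested. All 14 core and all 17 cap genes had a higher difference in the labelled B comparison, with medians of 1.90 and 1.66 log2, beside -0.03 over all genes. In all 42 of the 45 members were called in that direction, where 42.7% of all genes were called, 21.9% in that direction and 20.9% in the other. The largest were Psmb2, at 2.61 (SE 0.15), Psma5, at 2.59 (SE 0.16), and Psmd7, at 2.34 (SE 0.19), and limma gave them adjusted p-values of 2.14e-10, 1.04e-09 and 1.86e-08. Psmb10, Psmb11 and Psme3ip1 did not pass. Psma8 passed at 0.49 (SE 0.19, adjusted p = 0.0447), but all 4 of its group means, 4.00 to 4.36, lay under the background of 5.21 log2, which is the 95th percentile of 1027 olfactory receptor genes.

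**Figure D2:**
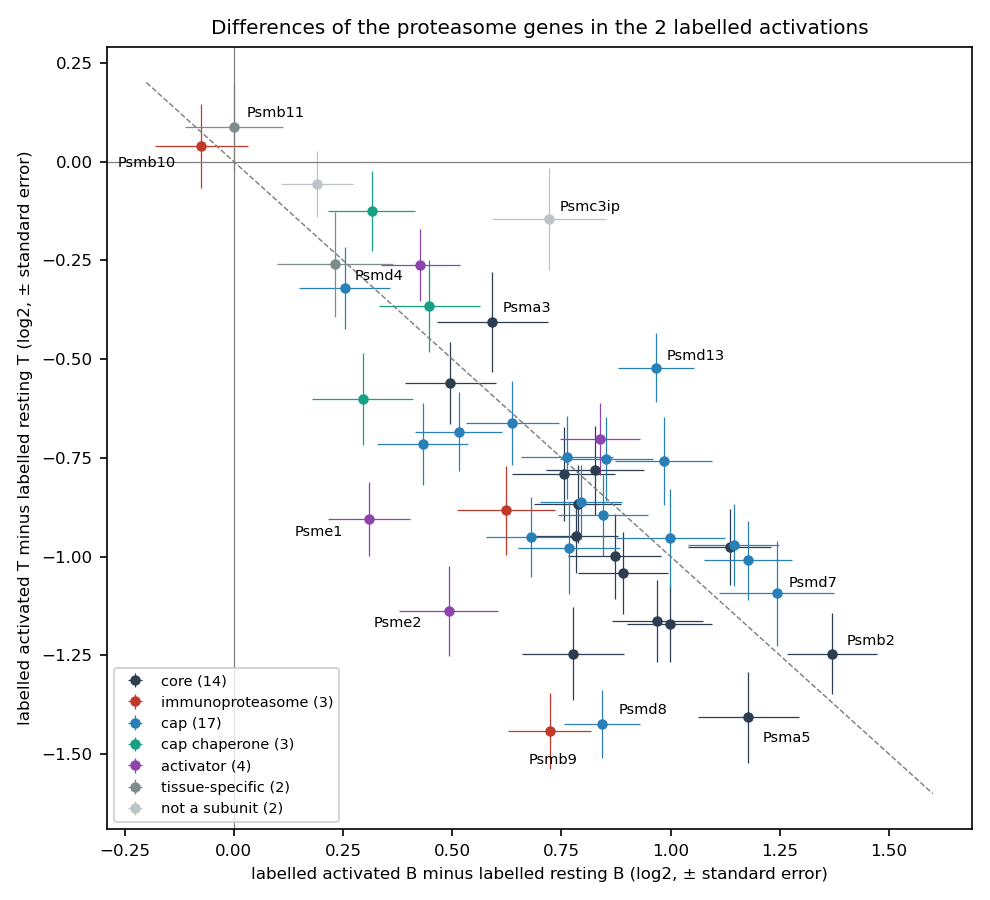
The x axis is the log2 difference between the activated-B-labelled and resting-B-labelled arrays, the y axis that between the activated-T-labelled and resting-T-labelled arrays, each point is 1 of the 45 genes with its standard errors, and the dashed line marks equal and opposite differences. Core and cap genes lie at the lower right, Psmb10 and Psmb11 lie near 0 on both axes, and Psme1, Psme2 and Psmb9 lie below the line.

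Across the 43 proteasome genes, the labelled B and labelled T differences correlated at r = -0.74, and across the 31 core and cap genes at -0.66. Over all 19937 genes the value was -0.68. These correlations are across genes, which are not independent replicates. The sum of both differences of a core or cap gene ran from -0.58 for Psmd8 to 0.44 for Psmd13. Psmd13, a lid subunit, was at 7.88, 8.06 and 7.98 in the resting-B-labelled arrays, 8.97, 8.97 and 8.88 in the activated-B-labelled ones, 8.39, 8.47 and 8.39 in the resting-T-labelled ones and 7.89, 7.82 and 7.98 in the activated-T-labelled ones. Its activated-B-labelled arrays were thus the highest, without overlap, and those of Psmd8 were second to the resting-T-labelled arrays.

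The comparisons between lineage labels within a labelled state share arrays with those already given. Markers of dividing cells differed in both. All 9 were lower in the resting-B-labelled than in the resting-T-labelled arrays (median -3.24). All 9 were higher in the activated-B-labelled than in the activated-T-labelled arrays (median 4.26), and their part was not tested. In the comparison of both resting labels, 13 core and 16 cap genes were lower in those labelled B, where 35.1% of all genes were called and 19.0% were lower. Psma3 (-0.24, adjusted p = 0.178 from limma) and Psmd4 (-0.06, adjusted p = 0.714) did not pass. The largest were Psmd8, at -1.27 (SE 0.09), Psma5, at -1.26 (SE 0.12), and Psmb2, at -1.25 (SE 0.10). In that of both activated labels, all 14 core and 17 cap genes were higher in those labelled B, where 40.7% of all genes were called, 21.8% higher and 18.9% lower. There Psmd7 differed by 1.40 (SE 0.13), Psmb2 by 1.36 (SE 0.10) and Psma5 by 1.32 (SE 0.12).

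Of the 3 catalytic subunits of the immunoproteasome, 2 passed in both labelled activations. Psmb8 and Psmb9 were called in the same directions as the core, and Psmb10 was called in neither labelled activation. Psmb8, which replaces Psmb5 at the chymotrypsin-like site, was at 9.38, 9.48 and 9.48 in the resting-B-labelled arrays and 10.03, 10.07 and 10.10 in the activated-B-labelled ones, and at 9.92, 10.04 and 9.67 in the resting-T-labelled ones and 9.18, 8.79 and 9.01 in the activated-T-labelled ones. The log2 differences were 0.62 (SE 0.11, adjusted p = 0.000248 from limma) for the labelled B and -0.88 (SE 0.11, adjusted p = 7.65e-06) for the labelled T arrays. The activated-B-labelled and resting-T-labelled arrays were above all others.

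Psmb9, which replaces Psmb6 at the caspase-like site, was at 9.46, 9.69 and 9.60 in the resting-B-labelled arrays, 10.26, 10.33 and 10.34 in the activated-B-labelled ones, 10.78, 10.93 and 10.74 in the resting-T-labelled ones and 9.50, 9.33 and 9.30 in the activated-T-labelled ones. It was highest in the resting-T-labelled arrays, without overlap. The log2 difference was 0.72 (SE 0.10, adjusted p = 1.01e-05 from limma) between the labelled B and -1.44 (SE 0.10, adjusted p = 3.27e-09) between the labelled T arrays, the latter the largest in size of all 45 members in that comparison. Tap1, the peptide transporter gene that lies head to head with Psmb9 on a shared promoter, had 0.32 (SE 0.10, adjusted p = 0.0178) and -1.23 (SE 0.10, adjusted p = 4.42e-08).

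Psmb10, which replaces Psmb7 at the trypsin-like site, was at 8.82, 8.87 and 8.82 in the resting-B-labelled arrays, 8.56, 8.90 and 8.83 in the activated-B-labelled ones, 8.41, 8.57 and 8.38 in the resting-T-labelled ones and 8.60, 8.33 and 8.55 in the activated-T-labelled ones. Its groups overlapped within both labelled activations. The log2 differences were -0.07 (SE 0.11, adjusted p = 0.658 from limma) and 0.04 (SE 0.11, adjusted p = 0.837), and the interaction was -0.11 (SE 0.15, adjusted p = 0.6). All 3 changed sign when arrays were centred on the median of all their probe sets, to 0.03, -0.07 and 0.10, and no sign can be given for them. In the comparison of both resting labels it was the member that ran against the others, being higher in those labelled B by 0.38 (SE 0.11, adjusted p = 0.00869), where 16.1% of all genes were called higher. In that of both activated labels its difference of 0.27 missed the threshold (adjusted p = 0.0542) and passed without array 1 of the activated-B-labelled arrays (0.37, adjusted p = 0.0124) or array 4 of the activated-T-labelled arrays (0.33, adjusted p = 0.0416). It also passed among genes above the background (adjusted p = 0.0331), with trend and robust settings (adjusted p = 0.0298) and with centring on the median of all probe sets (0.40, adjusted p = 0.00588).

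**Figure D3:**
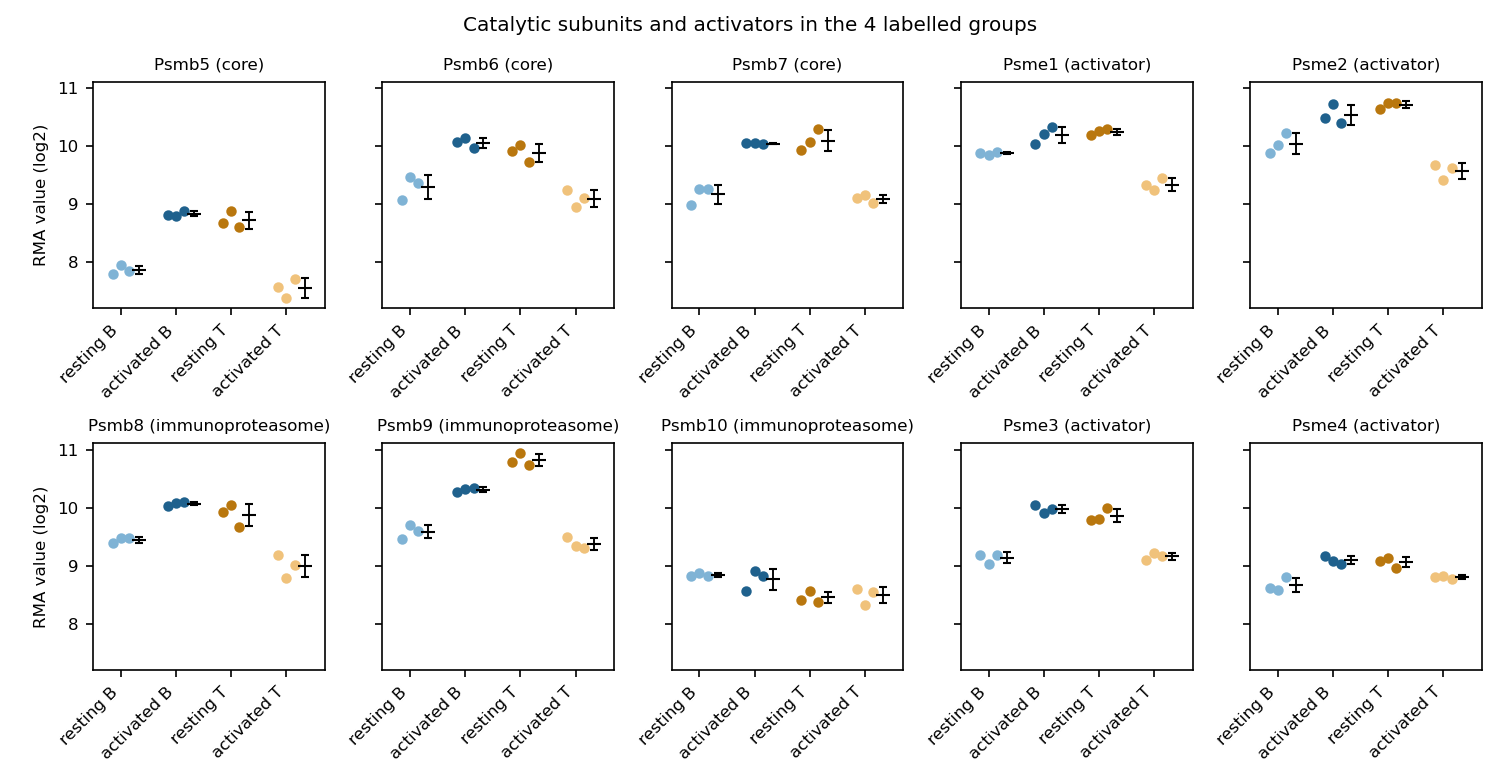
Each panel is 1 gene, with the RMA value (log2) on the y axis and 3 arrays for each of the 4 labelled groups as points, beside the mean ± SD. Of the genes shown, Psmb10 is the one without higher values in the activated-B-labelled and resting-T-labelled arrays.

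Their constitutive partners moved with the core. Psmb5 was at 7.80, 7.95 and 7.85 in the resting-B-labelled arrays, 8.82, 8.80 and 8.89 in the activated-B-labelled ones, 8.67, 8.89 and 8.60 in the resting-T-labelled ones and 7.57, 7.38 and 7.72 in the activated-T-labelled ones. The log2 differences of Psmb5 were 0.97 (SE 0.10) and -1.16 (SE 0.10), those of Psmb6 0.76 (SE 0.12) and -0.79 (SE 0.12), and those of Psmb7 0.87 (SE 0.11) and -1.0 (SE 0.11), for the labelled B and the labelled T arrays, all past the threshold.

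The change of each immunoproteasome subunit was then set against that of its partner on the same arrays, as a description without a test. Relative to Psmb7, Psmb10 fell by 0.95 (SE 0.16) in the activated-B-labelled arrays against the resting-B-labelled ones, and was higher by 1.04 (SE 0.16) in the activated-T-labelled ones than in the resting-T-labelled ones, with no overlap in either. Relative to Psmb5, Psmb8 fell by 0.35 (SE 0.08) and was higher by 0.28 (SE 0.08), also with no overlap. Relative to Psmb6, Psmb9 differed by -0.03 (SE 0.08) between the labelled B arrays, which overlapped, and by -0.65 (SE 0.08) between the labelled T arrays, which did not. Psmb9 relative to Psmb6 was 0.42 to 0.58 above its mean over all arrays in the resting-T-labelled arrays and below that mean in the other 9 arrays.

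**Figure D4:**
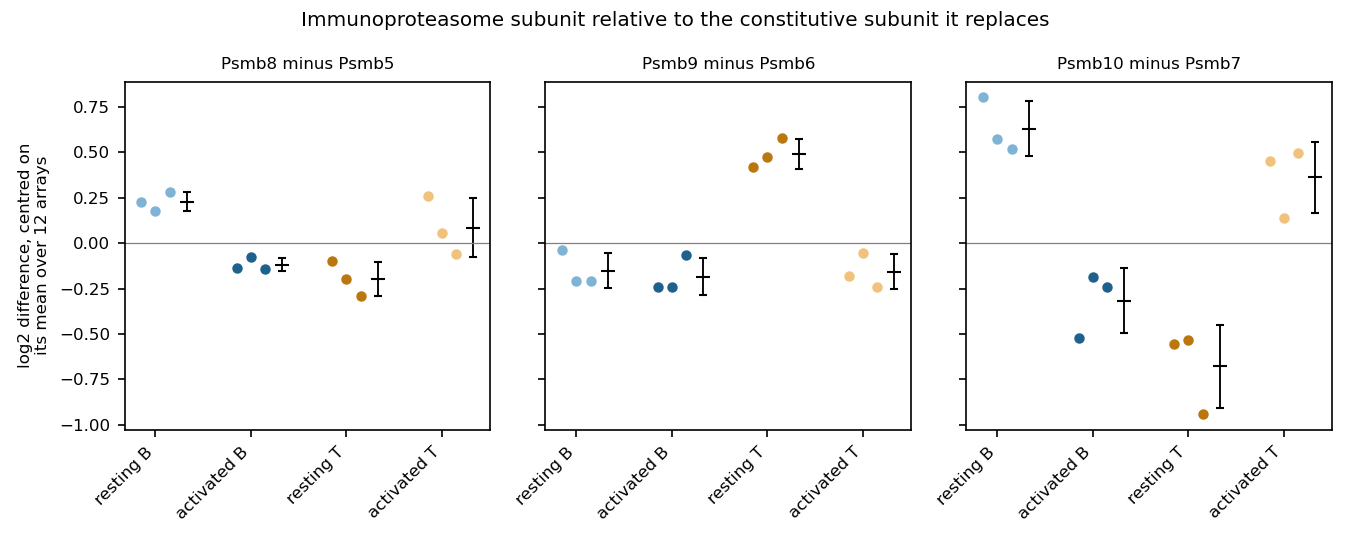
Each panel gives, for the 12 arrays in their labelled groups, the log2 value of an immunoproteasome subunit minus that of the subunit it replaces, centred on the mean over all arrays, with the group mean ± SD. Psmb10 minus Psmb7 is above 0 in the resting-B-labelled and activated-T-labelled arrays and below 0 in the others, and Psmb9 minus Psmb6 stands apart in the resting-T-labelled arrays.

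All 4 activators were higher in the activated-B-labelled arrays than in the resting-B-labelled ones and lower in the activated-T-labelled ones than in the resting-T-labelled ones. Psme1 and Psme2, which together form the activator induced by interferon gamma, had differences of larger size between the labelled T than between the labelled B arrays, and this contrast in size was not tested. Psme1 was at 9.89, 9.85 and 9.89 in the resting-B-labelled arrays, 10.04, 10.20 and 10.32 in the activated-B-labelled ones, 10.19, 10.25 and 10.29 in the resting-T-labelled ones and 9.33, 9.24 and 9.44 in the activated-T-labelled ones. The log2 differences were 0.31 (SE 0.09, adjusted p = 0.0147 from limma) and -0.90 (SE 0.09, adjusted p = 7.68e-07). The first was lost without array 3 of the activated-B-labelled arrays (0.24, adjusted p = 0.0903) and after quantile normalization (adjusted p = 0.374).

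Psme2 was at 9.88, 10.02 and 10.23 in the resting-B-labelled arrays, 10.49, 10.72 and 10.40 in the activated-B-labelled ones, 10.64, 10.75 and 10.74 in the resting-T-labelled ones and 9.68, 9.41 and 9.63 in the activated-T-labelled ones, with differences of 0.49 (SE 0.11, adjusted p = 0.00224 from limma) and -1.14 (SE 0.11, adjusted p = 4.97e-07). Its lowest values were the activated-T-labelled ones, as for Psme1. Psme3, the nuclear activator, had differences of 0.84 (SE 0.09, adjusted p = 1.25e-06) and -0.70 (SE 0.09, adjusted p = 1.04e-05). Psme4, a large activator of the nucleus, had 0.43 (SE 0.09, adjusted p = 0.0011) and -0.26 (SE 0.09, adjusted p = 0.0344). The second call of Psme4 was lost with the replicate block (adjusted p = 0.0648) and without any one of array 4 (adjusted p = 0.072), 5 (0.0626) or 6 (0.0918) of the activated-T-labelled arrays or array 4 (0.0854) or 5 (0.113) of the resting-T-labelled arrays. It was also lost with arrays centred on their median (adjusted p = 0.0694), after quantile normalization (adjusted p = 0.101) and with only the arrays compared (adjusted p = 0.0605).

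The chaperones of cap assembly are not part of the finished proteasome. Psmd9 was at 6.97 ± 0.06 (SD, n = 3) in the resting-B-labelled arrays and 7.42 ± 0.07 in the activated-B-labelled ones, and at 7.41 ± 0.10 and 7.05 ± 0.26 in resting-T-labelled and activated-T-labelled ones, both past the test. Psmd5 passed between the labelled B arrays (0.32, adjusted p = 0.0201 from limma) and had a difference of -0.13 between the labelled T arrays (adjusted p = 0.401). Psmd10, also known as gankyrin, had 0.29 (adjusted p = 0.0595) and passed at -0.60 (adjusted p = 0.000547). All 3 passed in the interaction.

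Psma8, a core subunit of germ cells, and Psmb11, the catalytic subunit of the thymus, had mean levels under the background of 5.21 log2, with group means of 4.00 to 4.36 and 4.84 to 4.98. Neither was called in either labelled activation. The other 43 members had means above the background, whereas 7767 of the 19937 genes were at or under it. Of the genes that match by name only, Psmc3ip had a difference of 0.72 (SE 0.13, adjusted p = 0.00024 from limma) between the labelled B arrays and -0.15 (adjusted p = 0.459) between the labelled T arrays, and Psme3ip1 passed in neither.

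Crossing the labels, the resting-B-labelled arrays were compared with the activated-T-labelled ones, and the activated-B-labelled ones with the resting-T-labelled ones. In the first, 3 of 9 dividing cell markers passed, with a median of 0.30, and in the second 7 of 9, with a median of 0.44. The T cell markers were all higher and the B cell markers all lower in the arrays labelled B, by medians of 3.97 and -3.42 in the first and 3.98 and -4.50 in the second. Few proteasome genes passed. In the first, 5 of the 45 were higher and 0 lower, where 18.5% of all genes were called, 9.68% higher and 8.82% lower, and 11 did not overlap with the resting-B-labelled arrays above, as did 15.5% of all genes. In the second, 3 were higher and 2 lower, where 23.0% of all genes were called, 13% higher and 9.93% lower.

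The 5 of 45 members called higher in the resting-B-labelled arrays than in the activated-T-labelled ones were a share near the 9.68% of all genes. Of these 5, 4 belong to the immunoproteasome or its interferon-induced activator. Psme1 had the largest log2 difference, 0.54 (SE 0.09, adjusted p = 0.000385 from limma), followed by Psme2, at 0.47 (SE 0.11, adjusted p = 0.00623), and Psmb8, at 0.45 (SE 0.11, adjusted p = 0.00742). Psmb10 had 0.34 (SE 0.11, adjusted p = 0.0313) and Psmb5, the only core gene, 0.31 (SE 0.10, adjusted p = 0.0488). Psmb9 had 0.21 (SE 0.10, adjusted p = 0.162). The 14 core genes had a median of 0.18 and the 17 cap genes one of 0.14, and 0 cap genes were called. Of other cell types, 2 of 8 myeloid markers were higher (median 0.18) and 1 of 6 dendritic cell markers was lower (median 0.19). Over all genes 9.68% were called higher and 8.82% lower, and the part of these markers was not tested.

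The calls of Psmb5, Psmb8 and Psmb10 did not hold without some single arrays. Without array 5 of the activated-T-labelled arrays, Psmb8 (0.35, adjusted p = 0.0547), Psmb10 (0.26, adjusted p = 0.166) and Psmb5 (0.22, adjusted p = 0.238) were lost. Psmb10 was also lost without array 1 (adjusted p = 0.0608), 2 (0.0953) or 3 (0.0679) of the resting-B-labelled arrays. Psmb5 was also lost without array 4 of the activated-T-labelled arrays (adjusted p = 0.0953), array 1 (0.0598), 2 (0.169) or 3 (0.0941) of the resting-B-labelled arrays, array 1 (0.0615), 2 (0.0624) or 3 (0.0633) of the activated-B-labelled arrays, or array 4 of the resting-T-labelled arrays (0.0587), and with arrays centred on their median (0.093) or only the arrays compared (0.0754). Psme1 and Psme2 passed without each array in turn.

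Between the activated-B-labelled and resting-T-labelled arrays, Psmd13 was higher by 0.52 (SE 0.09, adjusted p = 0.000212 from limma) in the activated-B-labelled ones, and Psmd3, another lid subunit, by 0.34 (SE 0.10, adjusted p = 0.0255). Psmb10 was higher by 0.31 (SE 0.11, adjusted p = 0.0465). Psmb9 had -0.51 (SE 0.10, adjusted p = 0.000657) and Psmd8 -0.43 (SE 0.09, adjusted p = 0.00128). No core gene was called, and the core median was 0.09 and the cap median 0.10. The calls of Psmd13, Psmb9 and Psmd8 held without each array in turn.

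In the same comparison, Psmd3 was lost without array 1 (0.30, adjusted p = 0.0943) or 3 (0.33, adjusted p = 0.075) of the activated-B-labelled arrays or array 4 (0.30, adjusted p = 0.0965) or 6 (0.32, adjusted p = 0.0653) of the resting-T-labelled arrays. Psmb10 was lost without array 2 (0.24, adjusted p = 0.197) or 3 (0.28, adjusted p = 0.152) of the activated-B-labelled arrays, array 4 (0.29, adjusted p = 0.13) or 6 (0.27, adjusted p = 0.129) of the resting-T-labelled arrays, array 1 (adjusted p = 0.0524), 2 (0.0579) or 3 (0.057) of the resting-B-labelled arrays, or array 6 of the activated-T-labelled arrays (0.0533), and with arrays centred on their median (0.0529), quantile normalization (0.0849) or only the arrays compared (0.0752). Of 8 myeloid markers 4 were lower in the activated-B-labelled arrays, and of 6 dendritic cell markers 2, where 9.93% of all genes were called lower. Their medians were -0.67 and -0.12, and their part was not tested.

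**Figure D5:**
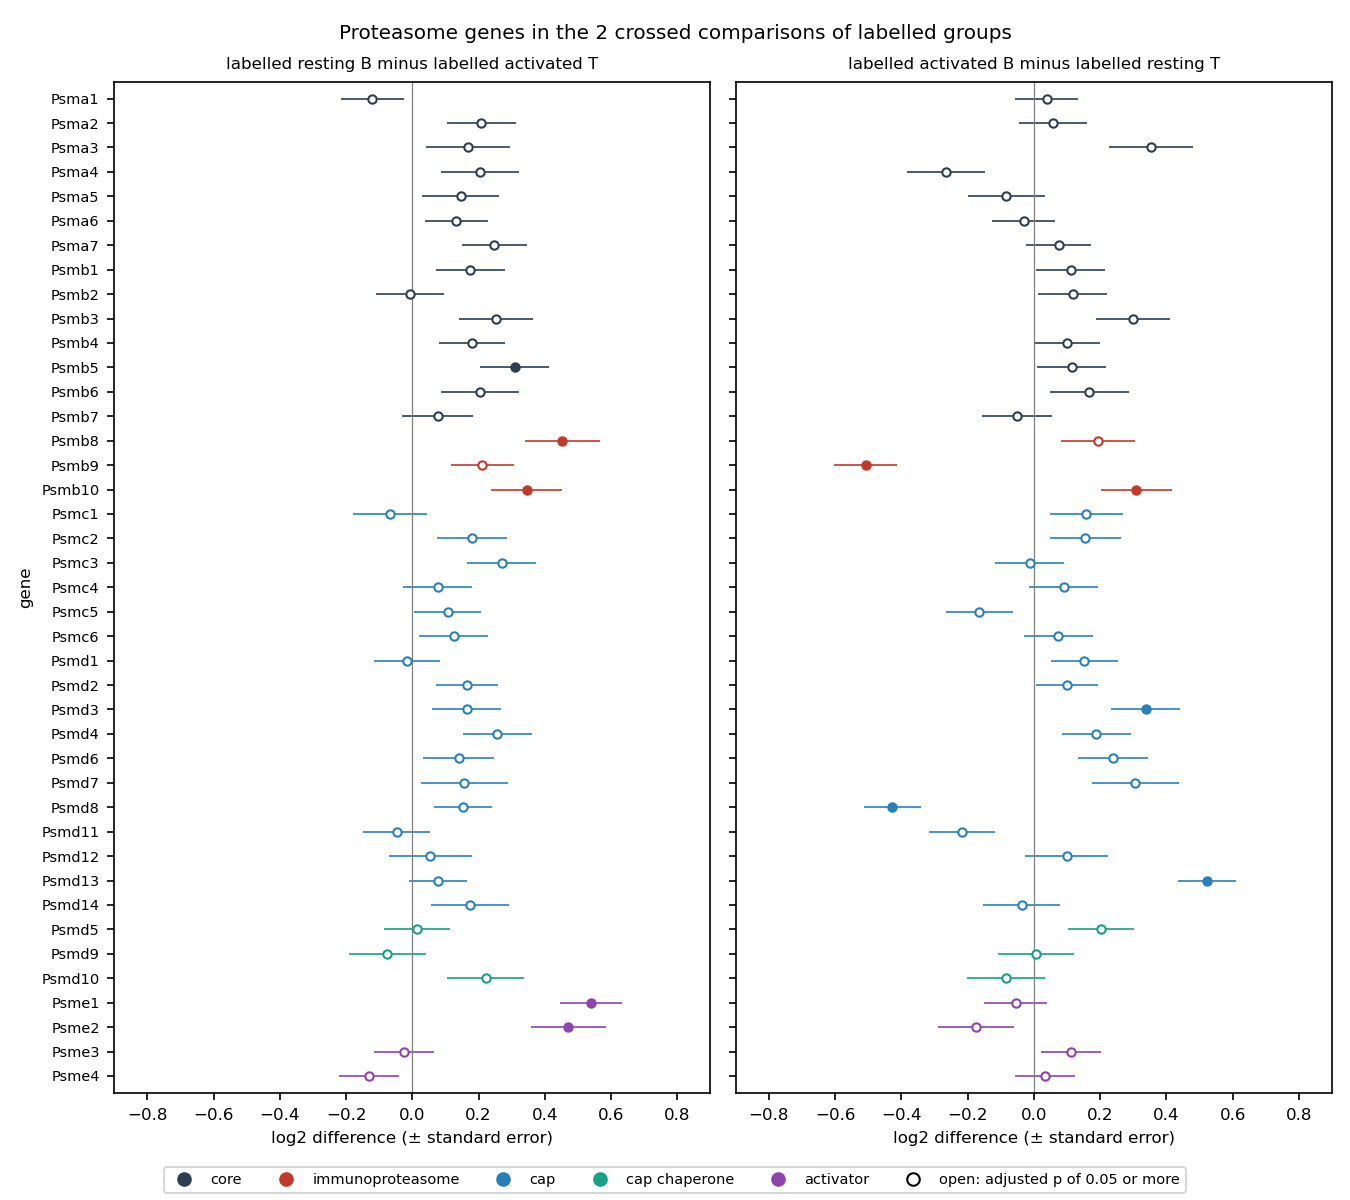
Log2 differences with standard errors of 41 genes, resting B minus activated T by label on the left and activated B minus resting T by label on the right, with filled points for an adjusted p under 0.05. Most core and cap genes lie within 0.3 of 0 in both panels, Psmb8, Psmb10, Psme1 and Psme2 lie highest in the left panel, and Psmb9, Psmd8 and Psmd13 stand apart in the right panel.

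Of a list of 9 genes tied to proteasome assembly, binding or transport, 6 were higher and 1 lower in the activated-B-labelled arrays than in the resting-B-labelled ones, and 5 were lower and 0 higher in the activated-T-labelled ones than in the resting-T-labelled ones, with medians of 0.62 and -0.62. Beside this list and those of the next paragraph, 19.7% of all genes were called higher and 16.7% lower between the labelled B arrays. Between the labelled T arrays 15.9% were called higher and 17.8% lower. The gene called lower between the labelled B arrays was Tbcel, at -0.34 (SE 0.10, adjusted p = 0.0125 from limma), and the list also holds Ecpas, which binds finished proteasomes, at 0.38 (SE 0.09) and -0.62 (SE 0.09), both past the threshold. Psmg1, a chaperone of the alpha ring, had 1.15 (SE 0.13, adjusted p = 1.45e-06 from limma) and -1.45 (SE 0.13, adjusted p = 1.03e-07). Pomp, which guides the beta subunits and is removed as the core matures, had 1.0 (SE 0.09, adjusted p = 1.64e-07) and -1.0 (SE 0.09, adjusted p = 1.8e-07). Txnl1, a thioredoxin that binds the cap, had 1.35 (SE 0.12) and -1.22 (SE 0.12), and Psmg4 (-0.13 and 0.20) and Akirin2, a factor of nuclear import of proteasomes (-0.10 and 0.04), did not pass.

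Of 11 other proteins that bind proteasomes, 6 were higher and 1 lower between the labelled B arrays, and 2 higher and 5 lower between the labelled T arrays. The deubiquitinase Uchl5, which sits on the cap, had 1.5 (SE 0.11, adjusted p = 1.4e-08 from limma) and -1.21 (SE 0.11, adjusted p = 2.04e-07), and Usp14, also a deubiquitinase of the cap, 0.84 (SE 0.10) and -0.66 (SE 0.10). Of 10 genes of the p97 complex and of ubiquitin supply, 4 were higher and 1 lower, and 1 higher and 7 lower. The ubiquitin-conjugating enzyme Ube2n had 0.94 (SE 0.10) and -0.95 (SE 0.10), and Vcp, which encodes p97, 0.64 (SE 0.10) and -0.96 (SE 0.10), all past the threshold.

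The regulators of proteasome genes were called in both directions. Of 10 measured, 2 were higher and 3 lower between the labelled B arrays, and 5 higher and 1 lower between the labelled T arrays, with medians of -0.11 and 0.29. Over all genes 19.7% were called higher and 16.7% lower in the first, and 15.9% and 17.8% in the second. Nfe2l1, the factor that raises proteasome genes when proteasomes are inhibited, had a difference close to 0 (SE 0.10, adjusted p = 0.987 from limma) and -0.27 (SE 0.10, adjusted p = 0.0602), with group means of 7.95 and 7.95 in the labelled B and 8.44 and 8.17 in the labelled T arrays, resting first. Nfe2l2, its relative in the response to oxidants, ran against the subunits, with -1.03 (SE 0.10, adjusted p = 2.77e-07) and 0.82 (SE 0.10, adjusted p = 3.96e-06). The repressor Bach1 had -1.17 (SE 0.11, adjusted p = 1.34e-07) and 0.64 (SE 0.11, adjusted p = 0.000114).

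Of 10 genes of MHC class I presentation, 4 were higher and 1 lower between the labelled B arrays, with a median of 0.05, and all 10 were lower between the labelled T arrays, with a median of -0.75. By the same tests 19.7% of all genes were called higher and 16.7% lower between the labelled B arrays. Between the labelled T arrays 17.8% of all genes were called lower. The interaction passed for all 10 class I genes, where 42.7% of all genes were called. Besides Tap1, the chaperone Canx had 0.89 (SE 0.12, adjusted p = 1.43e-05 from limma) and -0.82 (SE 0.12, adjusted p = 3.98e-05). Nlrc5, the transactivator of class I genes, had -0.28 (SE 0.11, adjusted p = 0.0488) and -1.34 (SE 0.11, adjusted p = 3.21e-08), and B2m -0.07 (SE 0.10, adjusted p = 0.62) and -0.44 (SE 0.10, adjusted p = 0.00151). In the resting-B-labelled arrays, against the activated-T-labelled ones, 5 of the 10 were higher, where 9.68% of all genes were called higher. Nlrc5 was higher there by 1.53 (SE 0.11, adjusted p = 1.06e-08 from limma).

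Of 16 genes of the interferon response, 4 were higher and 9 lower between the labelled B arrays and 3 higher and 10 lower between the labelled T arrays, with medians of -0.34 and -0.41, and more of them were thus lower than higher in both. Over all genes 19.7% were called higher and 16.7% lower in the first, and 15.9% and 17.8% in the second. Socs1, an inhibitor of cytokine signalling, had 1.71 (SE 0.10, adjusted p = 1.18e-09 from limma) and -2.09 (SE 0.10, adjusted p = 1.06e-10). Irf7 had -1.63 (SE 0.13) and -0.50 (SE 0.13), both past the threshold. Irf1, which acts on the immunoproteasome genes, had -0.22 (SE 0.13, adjusted p = 0.214) and -0.23 (SE 0.13, adjusted p = 0.193).

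Markers of cell types also differed in both labelled activations. Over all genes 19.7% were called higher and 16.7% lower between the labelled B arrays, and 15.9% and 17.8% between the labelled T arrays. The 9 B cell markers were all lower between the labelled B arrays (median -2.31), from list means of 7.10 to 8.39 in the resting-B-labelled arrays to 4.91 to 5.24 in the activated-B-labelled ones, and 8 were higher and 0 lower between the labelled T arrays (median 1.31). Of the 9 T cell markers, 4 were lower and 0 higher (median -0.36), and 3 were higher and 1 lower (median 0.20). Of 8 myeloid markers 7 were lower and 0 higher between the labelled B arrays (median -2.05) and 4 higher and 0 lower between the labelled T arrays (median 0.77). Of 6 dendritic cell markers 6 were lower (median -1.47), and 4 were higher and 1 lower (median 0.93). The mean of the myeloid list was 6.91 to 7.49 log2 in the resting-B-labelled arrays, 4.82 to 4.91 in the activated-B-labelled ones, 5.93 to 6.11 in the resting-T-labelled ones and 6.56 to 6.95 in the activated-T-labelled ones. Of 3 erythroid markers, 0 were called between the labelled B and 1 was higher between the labelled T arrays, and 2 of the 3 were under the background in every group. The part of these lists in the results was not tested.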

How the data were processed

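Each of the 12 arrays came with log2 values per probe set, which the authors deposited after RMA, as the submitters' processing notes name it. RMA gives every array the same distribution of probe values and would hide a general rise or fall. No version or annotation build was found in the sources used. Arrays give no read depth, and their number limits the precision. Array medians ran from 5.50 to 5.68 log2.

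Of 34760 probe sets, 21640 carried 1 gene symbol, 1321 several and 11799 none named here. Only those with 1 symbol were used, with the highest mean of the 954 genes that had several, which gave 19937 genes. Groups were taken from the labels. A linear model was fitted by limma 3.58.1 (R 4.3.3), with a mean for each of 4 groups over all 12 arrays (8 residual and 7.8 prior degrees of freedom) and Benjamini-Hochberg adjustment over all genes at 0.05. A call is an adjusted p under 0.05. No more than 0.069% of values were identical between any 2 arrays. The members, gene lists and motifs were chosen with earlier results of these data known. Single results are given for Psmb5 to Psmb10, Psme1 to Psme4 and the 3 core or cap genes with the largest called difference in each comparison and direction. Of the other lists, the 2 genes with the largest called difference may be named, with Mki67, Cd3e, Cd79a, Nfe2l1, Irf1, Tap1 and B2m. Other genes, such as exceptions of a class, Pomp, Usp14, Vcp, Psmg4, Akirin2, Ecpas and Irf7, were named after their values were seen. A few listed genes were not analysed here.

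Replicate numbers are shared within a lineage. Over 12170 genes above the background, deviations of same-numbered arrays correlated at r = -0.06, 0.06 and 0.25 in the arrays labelled B, and at 0.22, 0.16 and 0.23 in those labelled T, so that the numbers were taken to pair the latter. The fit without the block is reported, so its p-values for the labelled T arrays and the interaction ignore this pairing. Results with the block are given with the other processing alternatives.

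The fit was tested on simulated data. Noise was drawn independently for each gene and array and only the chosen genes were changed, so the shares need not hold for the measured arrays. In the simulated comparison of labelled activated with resting B (19937 genes), the share called was 66% of the 50 genes given a change of 0.5 log2, 95% of the 100 given 1 and 100% of the 50 given 2, and 8 of 186 calls were false. Alternatives were centring on the median, quantile normalization, genes above the background, the mean of all probe sets, only the arrays compared, an intensity trend with robust settings, the replicate block and leaving out each array. Centring each array on the median of all its probe sets was chosen after seeing the data. Motifs were searched with Python 3.11.15, in 11 patterns of which some were added after the first counts.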

Additional observations from a re-analysis of the deposited data

Results flagged for a closer look

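The difference between the labelled B difference and the labelled T difference, tested as an interaction in limma, passed for all 14 core genes, all 17 cap genes and 2 of the 3 immunoproteasome genes. On the log2 scale it was 2.13 for Psmb5, 1.55 for Psmb6 and 1.87 for Psmb7, the constitutive catalytic subunits. It was 1.51 for Psmb8 and 2.16 for Psmb9. It was 1.22 for Psme1, 1.63 for Psme2, 1.54 for Psme3 and 0.69 for Psme4. Of the core and cap genes it was largest for Psmb2, at 2.61, Psma5, at 2.59, and Psmd7, at 2.34. Since lineage genes went against the labels in all 4 groups, these are differences between labelled groups. The dividing cell markers also had opposite signs, with medians of 4.02 between the labelled B and -3.87 between the labelled T arrays. They were high in the activated-B-labelled and resting-T-labelled arrays, and their part in the interaction was not tested.

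One probe set, which carries the symbols of both Psme2b and Psme2, was left out of the comparisons because it names 2 genes. Its highest group mean was 9.13 ± 0.12 log2 (SD, n = 3), in the resting-B-labelled arrays, above the background of 5.21. The other group means were 8.88 ± 0.07 in the activated-B-labelled ones, 9.0 ± 0.12 in the resting-T-labelled ones and 9.03 ± 0.03 in the activated-T-labelled ones. Its order of groups was not that of the probe set of Psme2 alone, which was at its highest in the resting-T-labelled arrays.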

How the results depend on the processing

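Of the 25 counts of called core, cap and immunoproteasome genes, those of both labelled activations, of both comparisons between lineages and of the interaction stayed within 1.5 times their value under every alternative run. With the replicate block the core counts were 14, 14 and 14 in the labelled B, labelled T and interaction comparisons, the cap counts 16, 17 and 17 and the immunoproteasome counts 2, 2 and 2, and of the genes named by the rule only Psme4 between the labelled T arrays lost its call (adjusted p = 0.0648). Psme4 between both activated labels lost its call after quantile normalization (0.15, adjusted p = 0.18) and without array 1 of the activated-B-labelled arrays (0.26, adjusted p = 0.0627). Without each array in turn the core counts were 14 to 14, 13 to 14 and 14 to 14 and the cap counts 16 to 17, 16 to 17 and 17 to 17, and the immunoproteasome count between both activated labels was 2 to 3.

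Counts moved by over 1.5 times in the crossed comparisons, where few genes were called. Between the resting-B-labelled and activated-T-labelled arrays, the 1 core gene called higher became 0 with arrays centred on their median and with only the arrays compared, and 2 after quantile normalization, which also raised the cap count from 0 to 1. Without each array, the core count was 0 to 1, the cap count 0 to 2 and the immunoproteasome count 0 to 2. Between the activated-B-labelled and resting-T-labelled arrays, 0 core genes called higher became 1 with centring on the median of all probe sets and with the mean of all probe sets, and 2 among genes above the background and with trend and robust settings. Quantile normalization gave 1 core gene called lower and 2 cap genes called lower. Psmb10, the 1 immunoproteasome gene called higher, was lost (0 called) with centring on the median, quantile normalization and only the arrays compared. Without each array, core counts were 0 to 1 in each direction, the cap count higher 1 to 3 and the immunoproteasome count higher 0 to 1.

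Signs turned only for differences that were not called. Psmb10 turned to 0.0325 between the labelled B arrays, -0.0652 between the labelled T arrays and 0.0977 in the interaction with centring on the median of all probe sets, and without each array in turn it ran from -0.1431 to 0.027 and from -0.0158 to 0.121 in the first and second. Psme3 between the resting-B-labelled and activated-T-labelled arrays turned from -0.03 to 0.0008 with that centring, 0.005 after quantile normalization and, without each array, values of -0.0569 to 0.0296. Between the activated-B-labelled and resting-T-labelled arrays, leaving out each array gave -0.1333 to 0.0456 for Psmb7, -0.1229 to 0.019 for Psme1 and -0.0125 to 0.0699 for Psme4, and Psme4 turned to -0.0385 after quantile normalization. Where counts or signs moved, the cause was not tested.

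Centring on the median of all probe sets shifted all differences by 0.11 log2 between the labelled B arrays, -0.10 between the labelled T arrays, 0.13 between both activated labels and 0.21 in the interaction. The share of higher among called genes went from 54.1% to 66.6%, 47.3% to 33.9%, 53.5% to 68.5% and 51.2% to 67.6%, and from 45.9% to 36.5% between both resting labels. The smallest differences of the members are below or near these shifts.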
